A study of Mus musculus with 4 samples.

Results

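Secretoglobins are small secreted proteins, and 3 of them mark the secretory lining of the airways. Scgb1a1 encodes the club cell secretory protein, the most abundant product of club cells. Scgb3a2 is made in club cells from the developing lung onwards, and Scgb3a1 in secretory cells of the larger airways. Club cells line the bronchioles beside ciliated cells, carry detoxifying enzymes such as Cyp2f2 and can renew the airway lining. T cells do not make secretoglobins, so the secretoglobin UMIs (unique molecular identifiers, each counting 1 captured RNA molecule) found under T cell barcodes served as a measure of RNA that was free in the cell suspension.

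The 3 genes were chosen from measured values of these libraries, their UMIs by library and cell type, so their levels are given as a description and without a test. They are 3 of 27998 rows of the gene table and 3 of its 34 rows named Scgb. Scgb1a1 (ENSMUSG00000024653) lies on chromosome 19 of GRCm38, the build also called mm10, from 9083636 to 9087958 on the minus strand, and has 3 exons. Scgb3a1 (ENSMUSG00000064057) lies on chromosome 11 from 49663610 to 49665118 on the plus strand, with transcripts of 3 and 4 exons. Scgb3a2 has the identifier ENSMUSG00000038791. All 3 genes had UMIs in each of the 4 libraries.

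Whole lungs of wild type C57BL/6 mice, labelled male, were digested with collagenase D and DNase1, freed of dead cells and sequenced with the 10x 3′ kit. The 4 libraries were NB (10 days of age), 2 M (2 months), 10 M (10 months) and 18 M (18 months), with 1 library per age and the number of mice behind each not given in the sources used here. A difference between ages therefore has no replicate check, and the 95% intervals below (exact Poisson for sums, exact Clopper-Pearson for shares, exact conditional binomial for ratios) cover counting error only.

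The libraries held 6283 to 11297 barcodes and 33087004 to 64863474 UMIs each, 34037 barcodes and 187318121 UMIs in all. Of these, 28153 barcodes lay within the study's limits on genes (more than 200, fewer than 5000), UMIs (25000 at most) and mitochondrial share (below 8%). The library labelled 18 M stood apart. Xist, the RNA of the silenced X chromosome of female cells, reached 497 CPM (UMIs per 1000000) there, the remaining libraries did not exceed 0.463, and Y-linked genes had UMIs in every library. Between 17 and 28 barcodes were shared by a pair of libraries, and 1 of the 27 shared by 10 M and 18 M was among the Scgb1a1-rich barcodes (defined below) of one of them. Cell types were set by 18 marker gates, none of which contains a secretoglobin. A barcode belonged to a type with at least 3 of its markers and more of them than of any other type. Unless stated otherwise, values are for barcodes within the limits and with at least 2000 UMIs.

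Most secretoglobin UMIs of the series lay in a few barcodes. Listed from the youngest library to the oldest, as are all sets of 4 values below, Scgb1a1 had 42509, 3626, 57454 and 304882 UMIs. Scgb3a2 had 394, 41, 3049 and 16142 UMIs. Scgb3a1 was the rarest, with 34, 15, 1130 and 957 UMIs. As a share of all UMIs of a library, Scgb1a1 reached 4700 CPM in 18 M, 1157 in 10 M, 1070 in NB and 109.6 in 2 M, so that 2 M was lowest and 18 M highest for this gene and for Scgb3a2. For Scgb3a1 the highest library was 10 M, at 22.8 CPM against 14.8 in 18 M, but 1092 of its 1130 UMIs lay in a single barcode. Without the barcode richest in Scgb3a1 of each library the levels were 0.806, 0.393, 0.766 and 8.09 CPM, with 18 M highest. The same omission for Scgb1a1 gave 631.8, 15.4, 503.1 and 3963 CPM, with NB above 10 M.

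Barcodes in which Scgb1a1 made up at least 1% of UMIs are called Scgb1a1-rich here. There were 52, or 0.153% of all barcodes, of which the libraries held 12, 2, 9 and 29. They were chosen by the Scgb1a1 share itself, a range and not a cell type. The barcode just outside had 0.862% and the one just inside 1.04%, while 106 barcodes lay between 0.3% and 1% and 14 between 1% and 3%. The rich barcodes held 95.6% of all Scgb1a1 UMIs (95.5 to 95.6%), 89.8% of Scgb3a2 (89.4 to 90.2%) and 77.7% of Scgb3a1 (75.9 to 79.5%). Without the library labelled 18 M, an alternative added after the data were seen, these shares were 94.1%, 96.6% and 94.1%. The last of these, for Scgb3a1, comes from 10 M, where 1092 of 1130 UMIs lay in 1 barcode. The rich barcodes of NB and 2 M held 0 of 34 and 0 of 15 Scgb3a1 UMIs. Only 6 barcodes held 50% of the Scgb1a1 UMIs of the series, and a single barcode of 10 M held 51.1% of the Scgb3a1 UMIs. Without that barcode, the share of Scgb3a1 in rich barcodes was 54.4%.

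Most of these barcodes lay beyond the limits on cells. Of the Scgb1a1 UMIs, 91.6% were in barcodes outside the limits, as were 90.1% of those of Scgb3a2 and 83.1% of those of Scgb3a1. Of the 38 rich barcodes with at least 2000 UMIs, 8 were within the limits, 25 had over 25000 UMIs, 20 had 5000 genes or more and 5 had at least 8% mitochondrial UMIs. Within the limits the Scgb1a1 level was 334.3, 15.1, 62.9 and 415.8 CPM. The order of NB and 10 M was thus the reverse of that over all barcodes.

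**Figure D1:**
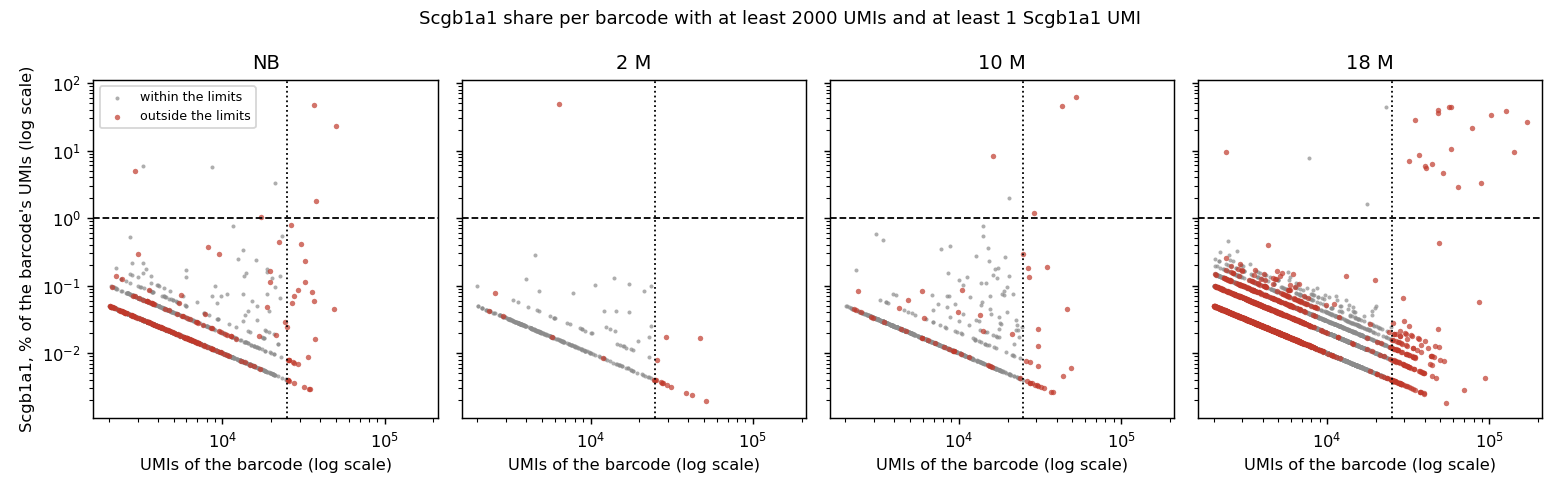
Each point is a barcode with at least 2000 UMIs and at least 1 Scgb1a1 UMI, placed by its UMIs (horizontal, log scale) and by the percent of them that were Scgb1a1 (vertical, log scale), with 1 panel for each library. The dashed line marks 1% and the dotted line 25000 UMIs, and red points lie outside the limits on genes, UMIs or mitochondrial share. The 38 points above the dashed line stand apart from the dense bands of 1, 2 or 3 UMIs below, and 25 of them lie to the right of the dotted line.

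The rich barcodes carried airway genes. Among the 38 with at least 2000 UMIs, 33 had at least 3 of the 18 airway secretory markers, 37 had a UMI of Cyp2f2, the monooxygenase of club cells, and 34 had a UMI of Epcam, the adhesion molecule of epithelia. Scgb1a1 made up 1.04% to 66.1% of their UMIs, with a median of 8.99%. In NB the 3 highest shares were 66.1%, 47.7% and 22.8%, on 7422, 17434 and 11516 UMIs. The only such barcode of 2 M had 3115 Scgb1a1 UMIs of 6344, or 49.1%, with 8.81% mitochondrial UMIs and 1 airway secretory marker. In 10 M the 2 highest had 61.2% (32504 UMIs) and 45.4% (19603 UMIs), and 18 M held 10 barcodes between 21.4% and 44.5%. The highest share of a library thus lay between 44.5% and 66.1%, and the number of rich barcodes between 1 and 23.

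Ciliated cell genes stood in many of the same barcodes. Of the 38, 21 had at least 3 ciliated markers, 19 had at least 3 of both kinds, and 13 had all 12 ciliated markers, which include Foxj1, the transcription factor of motile cilia. The 16 barcodes with at least 20% Scgb1a1 fell into 7 with all 12 ciliated markers and 9 with under 3. The 7 had 50458 to 170274 UMIs and 21.4% to 44.1% Scgb1a1. The 9 had 6344 to 53090 UMIs and 28.5% to 66.1% Scgb1a1. Foxj1 had 3 to 50 UMIs in the former and at most 1 in the latter. Alveolar type II markers were more frequent still, with at least 3 of 11 in 29 of the 38, and 22 of the 33 with airway secretory markers had at least 3 markers of no more than 5 cell types. Doublets were not called, so whether a barcode held 1 cell or several was not tested.

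A set of 5 rich barcodes of 18 M stood apart. They carried at least 3 markers of 7 to 11 cell types, T and B cells among them, with 32064 to 51904 UMIs, 4.61% to 6.93% Scgb1a1 and 0.0780% to 0.134% mitochondrial UMIs, against a median of 3.18% in the other 33. They held 4.09% of the Scgb1a1 UMIs in rich barcodes of 18 M. Without them, 28 of 33 rich barcodes had at least 3 airway secretory markers and 16 had at least 3 ciliated markers.

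The gates named few of these barcodes as airway secretory cells. Of the 38, 9 passed that gate, 14 the ciliated gate and 11 the alveolar type II gate, and 4 passed none. Within the limits the airway secretory gate held a single barcode, in 18 M, with 10321 Scgb1a1 and 256 Scgb3a2 UMIs of 23174. Its Scgb1a1 share was 2574 times that of the T cells of that library (2443 to 2715). Over all deposited barcodes the gate held 0, 0, 2 and 7 barcodes, and the 18 M ratio was then 1662. The alveolar type II gate went against its label in an NB barcode with 7422 Scgb1a1 UMIs of 11222, which passed with 8 markers but had 38 UMIs of Sftpc, the surfactant gene whose median in that gate was 2872 UMIs.

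Scgb3a1 and Scgb3a2 were shared unequally among the rich barcodes. Scgb3a2 was found in 32 of the 38, at up to 3617 UMIs, and Scgb3a1 in 8, of which 5 had 10 UMIs or more. The 6 barcodes without Scgb3a2 had 143 to 1359 Scgb1a1 UMIs, and each had at least 100 UMIs of Sftpc. None of the rich barcodes of NB or 2 M had a Scgb3a1 UMI, and beside their 38753 and 3115 Scgb1a1 UMIs the exact interval of the ratio ends at 0.00952 and 0.118 Scgb3a1 UMIs per 100 of Scgb1a1.

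The barcodes with most Scgb3a1 also had mucin. Muc5b, the main gel-forming mucin of mouse airways, was named after its values were seen, as was Bpifa1, an antimicrobial protein of the upper airways. The 10 M barcode with 1092 Scgb3a1 UMIs had 62 of Muc5b, 1122 of Bpifa1, 2354 of Scgb3a2 and 19603 of Scgb1a1. In 18 M the barcode with 433 Scgb3a1 UMIs had 96 of Muc5b, 1119 of Scgb3a2 and 1809 of Scgb1a1, and that with 93 had 6 of Muc5b, 9 of Scgb3a2 and 224 of Scgb1a1. The 7 rich barcodes with Muc5b held 1653 Scgb3a1 UMIs, or 99.6% of those in the 38, and 29.8% of the Scgb1a1 UMIs. Of the 7, 5 had a Scgb3a1 UMI, and 1092 of the 1653 lay in the 1 barcode of 10 M. The 31 without Muc5b held 7 Scgb3a1 UMIs, at most 3 in a barcode.

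Relative to Scgb1a1, the other 2 genes were far more frequent in T cells than in the rich barcodes of 18 M. UMIs of the 3′ kit do not scale with transcript length, so their ratios are given as counted. In 18 M the rich barcodes with at least 2000 UMIs held 0.189 Scgb3a1 UMIs per 100 of Scgb1a1 (0.173 to 0.205), and the T cells 3.27 (2.44 to 4.30). Scgb3a2 stood at 4.87 per 100 in the rich barcodes (4.79 to 4.96) and at 17.5 in T cells (15.4 to 19.9). The T cell values were 17.4 times (12.8 to 23.0) and 3.6 times (3.19 to 4.05) those of the rich barcodes. Rich barcodes were chosen by a high share of Scgb1a1, the denominator of these ratios, and T cells were not. That choice by itself can lower the ratios of rich barcodes in any library. How much of the gaps it accounts for was not tested. Of the 23 rich barcodes of that library, 2 lay above the T cells for Scgb3a1 and 3 for Scgb3a2. Without the barcode with 433 Scgb3a1 UMIs, the rich barcodes held 0.0406 per 100.

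NB had 0.818 Scgb3a2 per 100 in rich barcodes and 3.48 in T cells (2.01 to 5.64), a ratio of 4.26 (2.45 to 6.93). Among the rich NB barcodes, 4 had at least 3 airway secretory or ciliated markers and under 8 alveolar type II markers. Their value was 1.86 (1.62 to 2.12), which overlapped the T cells. Of their 230 Scgb3a2 UMIs, 215 lay in 1 barcode. The cut on alveolar type II markers left out, among others, the barcodes with 17434 and 7422 Scgb1a1 UMIs. Those had 0.402 and 0.229 per 100. For 10 M the ratios of T cells to rich barcodes were 0.499 for Scgb3a1 (0.0126 to 2.78), on 1 UMI, and 1.11 for Scgb3a2 (0.406 to 2.41), on 6. Over all barcodes of that library but those of epithelial gates they were 1.40 (0.812 to 2.25) and 0.761 (0.491 to 1.13), so a difference was not detectable at this depth. That rests on 1 barcode, without which the rich barcodes of 10 M held 0.0491 Scgb3a1 (0.0286 to 0.0787) and 1.87 Scgb3a2 (1.72 to 2.02) per 100, below the 2.86 (1.66 to 4.62) and 4.21 (2.70 to 6.28) of the non-epithelial barcodes. The 2 M T cells had 0 Scgb3a1 and 1 Scgb3a2 UMIs beside 53 of Scgb1a1. The non-epithelial barcodes of 2 M held 4.59 Scgb3a1 (2.42 to 7.98) and 2.83 Scgb3a2 (1.21 to 5.65) per 100, on 13 and 8 UMIs. Its 1 rich barcode held 0 and 0.931, and the Scgb3a2 ratio was 3.04 (1.20 to 6.81). Which cells the free RNA came from was not tested.

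**Figure D2:**
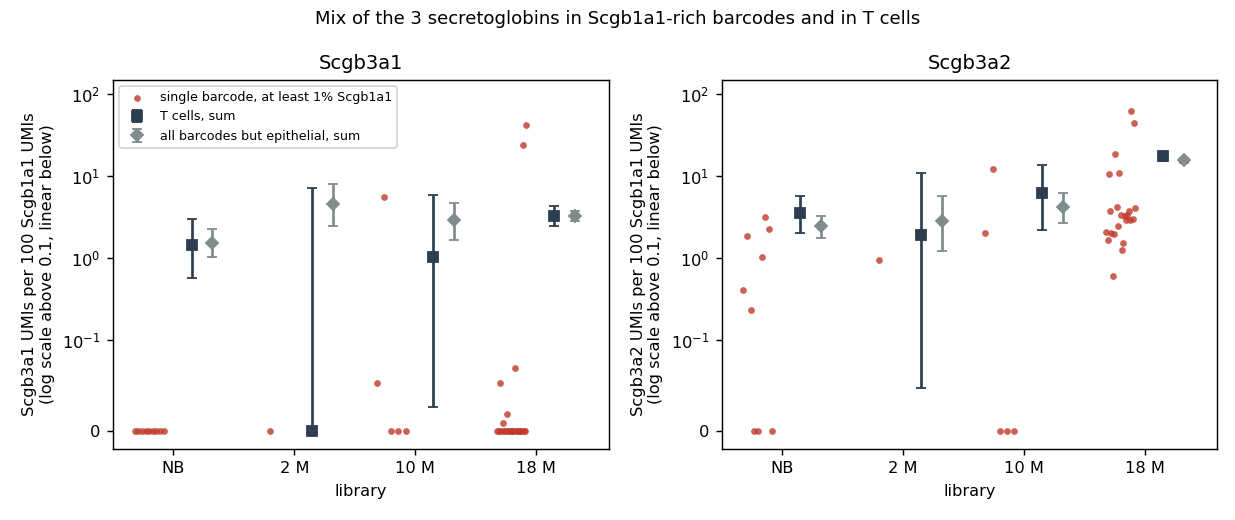
UMIs of Scgb3a1 (left) and Scgb3a2 (right) per 100 Scgb1a1 UMIs by library, on an axis that is logarithmic above 0.1 and linear below. Red points are single barcodes with at least 2000 UMIs and at least 1% Scgb1a1, dark squares the sum over T cells and grey diamonds the sum over all barcodes but those of epithelial gates or rich in Scgb1a1, with 95% counting intervals. In 18 M the T cell value of 3.27 for Scgb3a1 lies above all but 2 of the 23 barcodes. The red points were chosen by a high share of Scgb1a1, the denominator, which can lower them.

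Other airway genes were concentrated in the same barcodes. Over 17646 genes with at least 10 UMIs the median share of UMIs in the 38 rich barcodes was 0.668%. For 27 of 29 club and goblet cell genes that reached 10 UMIs it was 25.9%, and 10 of them had over 50% there. The highest were Bpifa1 (95.3%), Gabrp (92.3%) and Reg3g (90.4%), named after their values were seen. They had UMIs in 2, 20 and 3 of the 38 barcodes, and 1122 of the 1182 Bpifa1 UMIs lay in 1 barcode of 10 M. The 6 most abundant were Lcn2 (0.405%), Cbr2 (22.3%), Hp (24.2%), Aldh1a1 (26.7%), Cyp2f2 (61.2%) and Selenbp1 (20.8%). Lcn2, which neutrophils also make, was the exception among them. For Scgb1a1, Scgb3a2 and Scgb3a1 the share on this count was 95.1%, 89.6% and 77.7%.

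The 14 ciliated genes had a median of 32%, with Sec14l3 at 31.4%, Tmem212 at 34.4%, Foxj1 at 27.5% and Tppp3, which other cells also make, at 15.4%. The median of 13 transcription factors of airway secretory cells was 9.17%, with Nkx2-1, the lung lineage factor, at 5.44%, Ehf at 7.0%, Elf3 at 10.4% and Nfib at 1.88%. The 10 epithelial identity genes had a median of 14.2%, among them the keratins Krt8 (21.6%) and Krt18 (19.1%) and the tight junction gene Cldn3 (14.1%). The 10 other abundant transcripts, surfactant, haemoglobin, Retnla and Lyz2, had 1.64%. Retnla was highest of these at 17.9% and Sftpc was at 1.70%.

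In 18 M all 3 secretoglobins were at least 10-fold higher in rich barcodes than in T cells, by a rule that used Scgb1a1 itself. The background was 12.7% of 12648 genes tested with at least 10 UMIs in both together. Of the fixed lists, 21 of 22 club and goblet genes tested, 14 of 14 ciliated genes, 10 of 11 transcription factors, 10 of 10 epithelial genes and 6 of 10 abundant transcripts were past that fold. All lists were chosen with earlier results of these data known.

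T cells of every library held Scgb1a1 UMIs. The sums were 488, 53, 98 and 1619 UMIs in 1704, 1031, 1267 and 1551 T cells. As CPM this was 47.0 (42.9 to 51.4), 7.43 (5.57 to 9.72), 11.9 (9.63 to 14.5) and 173.0 (164.7 to 181.6). At least 1 UMI was found in 22.7%, 4.46%, 7.10% and 60.2% of the T cells. NB and 18 M lay apart from all others by counting error, and 10 M was 1.60 times 2 M (1.13 to 2.27).

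The 18 M level was 23.3 times that of 2 M (17.7 to 31.2), 14.6 times that of 10 M (11.9 to 18.1) and 3.68 times that of NB (3.32 to 4.08). Scgb3a2 had 17, 1, 6 and 284 UMIs in T cells, and the 18 M level was 216.4 times that of 2 M on its single UMI (38.5 to 8579). Scgb3a1 had 7, 0, 1 and 53, which is at least 13.5-fold higher in 18 M than in 2 M against a floor of 3 UMIs. The 0 of 1031 T cells with a Scgb3a1 UMI in 2 M allows, by that floor of 3, a share of up to 0.291%.

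All 3 members were thus at least 2-fold higher in T cells of 18 M than of 2 M, where 12.4% of 11977 genes were. In NB against 2 M both members with at least 10 UMIs together, Scgb1a1 and Scgb3a2, were past 2-fold, beside 8.76% of genes. In 10 M against 2 M the 1 member tested, Scgb1a1, was not, beside 5.34%. The members were chosen on such contrasts, so nothing is read from these counts.

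By summed UMIs, the order of NB and 10 M in T cells was not that in the rich barcodes. Rich barcodes of 10 M held 55568 Scgb1a1 UMIs and those of NB 38794, of which 32504 and 17434 lay in a single barcode. The T cell level of 10 M, as CPM, was 0.252 times that of NB (0.201 to 0.314). The sums are not scaled to the size of the library. Over all barcodes 10 M had 1157 CPM and NB 1070. Without the top barcode of each library these were 503.1 and 631.8 CPM, the order of the T cells, so the mismatch rests on single barcodes. Within 18 M the 2 kinds of T cells had overlapping intervals. T cells with Y-linked and no Xist UMIs, 795 barcodes, had 179.3 CPM (167.3 to 191.8), and the 509 with Xist and no Y-linked UMIs had 163.1 (149.5 to 177.7). In B cells the intervals did not overlap. The 991 B cells with Y-linked and no Xist UMIs had 210.6 CPM (197.5 to 224.3). The 834 with Xist and no Y-linked UMIs had 256.6 (240.4 to 273.7). Alveolar type II cells and alveolar macrophages of both kinds had overlapping intervals.

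Other abundant transcripts were also higher in 18 M T cells. Sftpc had 689, 399, 574 and 2382 UMIs there, a ratio of 4.55 between 18 M and 2 M. Hbb-bs, an adult globin, had a ratio of 3.29. Lyz2 had the lowest ratio among the listed abundant transcripts, 1.50 (1.23 to 1.83). Of the club and goblet cell list, Cbr2, the carbonyl reductase of club cells, had 35, 4, 7 and 116 UMIs, a ratio of 22.1 (8.40 to 82.5). That was the highest among the 6 most abundant genes of the list. The others had 16.8 (Cyp2f2), 5.84 (Aldh1a1), 4.19 (Hp), 3.81 (Lcn2) and 3.30 (Selenbp1), on 1 to 12 UMIs in 2 M. Gsta4 of the same list, named after its value was seen, had 0.876 (0.561 to 1.37). Retnla had 3, 0, 0 and 279 UMIs, and Cyp2f2 8, 1, 3 and 22.

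Immune gates other than T cells also held Scgb1a1 UMIs in every library. Across T, B and NK cells, neutrophils and both macrophage gates, the mean in 18 M ranged from 0.945 UMIs per barcode in NK cells to 1.67 in alveolar macrophages, with 1.04 in T and B cells. In NB it ranged from 0.286 in T cells to 0.459 in alveolar macrophages, in 2 M from 0.0276 in NK cells to 0.579 in the 19 barcodes of monocytes, interstitial macrophages and dendritic cells, where all 11 UMIs lay in a single barcode, and in 10 M from 0.0492 to 0.289. Some smaller gates lay outside these ranges, with 0.837 in 49 basophils and mast cells of 18 M and 0.56 in 50 plasma cells of NB. B cells had 1.01 times the T cell mean per barcode in NB (0.896 to 1.14), 0.742 times in 2 M (0.524 to 1.06), 0.636 times in 10 M (0.492 to 0.825) and 1.0 times in 18 M (0.940 to 1.07).

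The order of CPM levels in 18 M ran from neutrophils (289.0, median depth 2852 UMIs) and B cells (231.2, 3460) to alveolar macrophages (119.5, 13777) and fibroblasts (109.5, 11914). Of the 12 neighbouring pairs among 13 gates only 2 differed beyond counting error, neutrophils over B cells and B cells over alveolar type II cells. In the 3 younger libraries the only such pair was alveolar type II cells over the gate next below. For Scgb3a1 and Scgb3a2 neighbouring gates differed beyond counting error in at most 1 pair in any library.

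**Figure D3:**
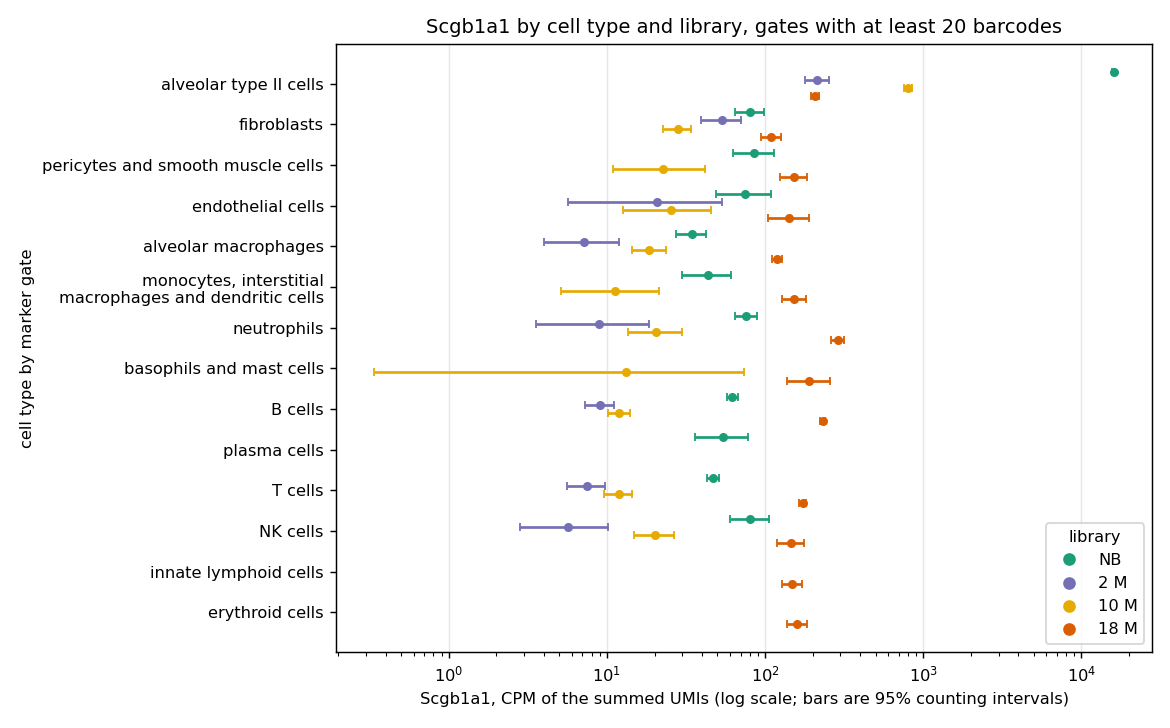
Scgb1a1 in CPM (horizontal, log scale) for each cell type with at least 20 barcodes in a library, with 95% counting intervals and colours for the 4 libraries. In the 3 younger libraries the alveolar type II cells lie far to the right of all other types, at 16088, 214.6 and 800.9 CPM, while in 18 M they lie at 207.8 among the other types.

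In NB and 18 M T cells the CPM moved more with depth than the number of UMIs per barcode. In 18 M T cells the mean was 0.852 UMIs per barcode from 2000 to below 4000 UMIs, 1.04 from 4000 to below 8000 and 1.30 from 8000 up, while the CPM fell from 257.8 through 185.8 to 116.6. NB T cells had 0.258, 0.294 and 0.30 UMIs per barcode and 79.8, 51.2 and 28.8 CPM in the same bins. In 2 M T cells it was the UMIs per barcode that moved more, from 0.0233 through 0.0512 to 0.0613, at 7.13, 8.28 and 6.10 CPM, on 2 to 35 UMIs a bin. B cells of 10 M likewise had 0.0383, 0.0561 and 0.155 UMIs per barcode at 11.8, 11.4 and 14.1 CPM. T cells of 10 M and B cells of 2 M went the way of NB and 18 M T cells. The former had 0.0547, 0.0806 and 0.0842 UMIs per barcode at 16.5, 13.7 and 8.16 CPM. The latter had 0.0405, 0.0348 and 0.0370 at 12.4, 7.05 and 3.51 CPM. Over all types, 18 M barcodes below 2000 UMIs and not rich in Scgb1a1 had 0.616 UMIs per barcode, 514.3 CPM and a UMI in 42.4% of 1191. The deeper ones had 1.13 UMIs, 173.1 CPM and a UMI in 61.8% of 7182. Thinned to 1000 UMIs per barcode, the share with a Scgb1a1 UMI in T cells was 5.10%, 0.752%, 1.24% and 17.2%, with the libraries in the same order as unthinned.

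**Figure D4:**
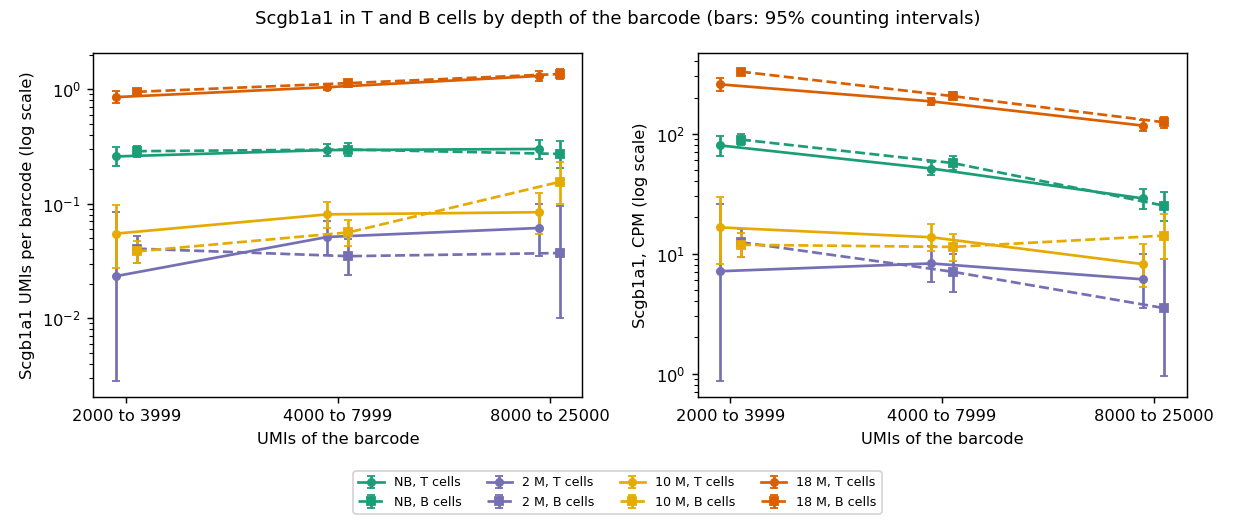
Scgb1a1 in T cells (circles, full lines) and B cells (squares, dashed lines) by the UMIs of the barcode, as UMIs per barcode (left) and CPM (right), both on log scales with 95% counting intervals. The 18 M T cells stay between 0.852 and 1.30 UMIs per barcode while their CPM falls from 257.8 to 116.6.

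Alveolar type II cells, which make surfactant, held Scgb1a1 above the level of T cells in 3 libraries. Their label was borne by Sftpc, which is not a marker of the gate, with a median of 1623 to 2872 UMIs per barcode. Lamp3, a lamellar body gene, was found in 33 of 33, 38 of 40, 101 of 103 and 502 of 507 barcodes. It is among the 11 markers of the gate, so its presence follows largely from the gate. They held 8622, 127, 1194 and 1265 Scgb1a1 UMIs. The ratio of CPM to T cells was 342.3 (312.4 to 375.8), 28.9 (20.8 to 40.6), 67.5 (54.9 to 83.8) and 1.20 (1.12 to 1.29).

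Single barcodes decided some of these values. Without the 2 rich barcodes of NB, 1 of 10 M and 1 of 18 M, the ratio was 20.8 in NB (18.3 to 23.6), 45.5 in 10 M (36.9 to 56.7) and 0.631 in 18 M (0.576 to 0.692), and 2 M, with none, kept 28.9. Per barcode the means were then 15.9, 3.17, 7.78 and 1.31 UMIs, the last between the T cells (1.04) and the alveolar macrophages (1.67) of that library. The 3 younger libraries thus stayed above T cells, and 18 M did not by CPM.

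The UMIs of single alveolar type II barcodes not rich in Scgb1a1 ran from 0 through a median of 4 to 127 in NB, from 0 through 1 to 23 in 2 M, from 0 through 2 to 108 in 10 M and from 0 through 1 to 9 in 18 M. At least 10 UMIs were found in 11 of 31, 4 of 40, 20 of 102 and 0 of 506, against 1 of 1704 NB T cells and none of the T cells of the other libraries. A Cyp2f2 UMI stood beside them in 4 of the 11 NB and 11 of the 20 10 M barcodes and in none of the 4 of 2 M. Among all alveolar type II barcodes not rich in Scgb1a1 it was found in 10 of 31 in NB, 21 of 102 in 10 M and 5 of 40 in 2 M. The NB share was thus near that of the whole gate. Thinned to 1000 UMIs, a Scgb1a1 UMI was found in 42.4%, 15.5%, 26.4% and 11.3% of all alveolar type II barcodes, the last below the 17.2% of T cells.

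Scgb3a2 stood in no fixed ratio to Scgb1a1 in these cells. They had 21, 1, 1 and 133 Scgb3a2 UMIs, which per 100 of Scgb1a1 was 0.244 (0.151 to 0.373), 0.787 (0.0198 to 4.47), 0.0838 (0.00212 to 0.468) and 10.5 (8.73 to 12.6). The value of 10 M lay below its rich barcodes (5.53), while that of 2 M did not differ from its rich barcode (0.931) beyond counting error. These ratios include the rich barcodes of the gate. In NB 17 of 21 lay in the barcode with 66.1% Scgb1a1, which also held 7422 of the 8622 Scgb1a1 UMIs. In 18 M 1 rich barcode held 601 of the 1265 Scgb1a1 UMIs but 18 of the 133 Scgb3a2 UMIs, which lowers the ratio. The T cells of 18 M, a measure of free RNA, stood at 17.5 per 100 (15.4 to 19.9). Scgb3a1 had 0, 0, 0 and 24 UMIs in these cells, the last at 0.696 times the T cell level of that library (0.411 to 1.15).

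There were 12, 2, 8 and 18 ciliated cells within the limits. They held 815, 8, 106 and 312 Scgb1a1 UMIs, found in 12, 2, 7 and 10 of them. Of Scgb3a2 they held 13, 1, 4 and 139 UMIs, and of Scgb3a1 none. Of the Scgb1a1 UMIs, 490 in NB and 287 in 18 M lay in a single barcode, which in 18 M also held 128 of the Scgb3a2 UMIs.

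Fibroblasts of 2 M held more Scgb1a1 than the T cells of that library, with 48 UMIs in 89 barcodes, 7.20 times the CPM (4.77 to 10.9). The UMIs lay in 20 barcodes, 13 of them in 1. Thinned to 1000 UMIs the share was 5.17% against 0.752% in T cells. The ratio was 1.70 in NB (1.35 to 2.13), 2.36 in 10 M (1.76 to 3.16) and 0.633 in 18 M (0.539 to 0.740). Per barcode the 18 M ratio went the other way, at 1.28 (1.09 to 1.50). The median depth there was 11914 UMIs in fibroblasts and 5316 in T cells.

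Scgb3a1 was seen in endothelial cells of 10 M with 8 UMIs in 5 of 50 barcodes, at most 3 in 1, or 18.4 CPM (7.96 to 36.3), where T cells had 1 UMI in 1267 barcodes. Endothelial cells of NB, 2 M and 18 M had 2, 0 and 3 Scgb3a1 UMIs in 47, 30 and 35 barcodes, and the 18 M value of 9.24 CPM (1.91 to 27.0) did not differ beyond counting error from its T cells (5.66 CPM). The 10 M barcode with 3 had no UMI of Scgb1a1 or Scgb3a2.

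Over 43 groups of a library and a cell type with at least 20 barcodes, the genes most like each member were ranked by Spearman correlation of CPM among 12242 genes. These groups share libraries, depth and free RNA, so the correlations are a description. For Scgb1a1 they were Krt8 (0.85), Wfdc2 (0.79), Cbr2 (0.79), Sftpc (0.72) and Tsix (0.72). For Scgb3a2 they were Sftpb (0.74), Xist (0.73), Scgb3a1 (0.71), Tsix (0.71) and Scgb1a1 (0.70). For Scgb3a1, on 295 UMIs, they included Scgb3a2 (0.71), Stfa1 (0.66), Alas2 (0.65) and BC100530 (0.63). Xist and Tsix are RNAs of the X inactivation centre, and Xist was high only in the library labelled 18 M.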

How the data were processed

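Lung cells of 4 libraries, 1 per age, were measured. The deposited values are raw UMI counts per gene and barcode, which the authors obtained by aligning reads to mm10. The submitters' processing notes name Cell Ranger (3.0.2) and Seurat 2.0, and the matrix headers give a software version of 3.1.0. No normalization had been applied, and each barcode had at least 500 UMIs. The study's 25000 UMIs was read as an upper limit.

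UMIs were summed per library and marker gate and scaled to CPM, so that large barcodes weigh most. Barcodes with ties between types, or under 3 markers, were left ungated (763 to 1021 of 5161 to 7377 per library), and 220 to 1004 had 3 markers of 2 or more types. Doublets were not called and were kept. Trac, Trbc1, Trbc2 and Trdc are not among the rows used here, so T cells rest on 6 of 10 markers. Ratios and their intervals were tested on simulated data. With 1 library per age no test was made.

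The 3 genes, the marker gates, the lists and the rules were chosen with earlier results of these data known. The genes named are the 3 members, up to 6 of highest UMIs per list, the 5 most correlated with each member (at least 200 UMIs) and other Scgb rows, and 1 of these genes is not reported here. Gene positions are from GENCODE M21. Alternatives tried were all deposited barcodes, gates of 2 or 4 markers, a strict gate, minimums of 1000 and 3000 UMIs, the mean share per barcode, totals without haemoglobin and mitochondrial genes, and leaving out the barcode with most UMIs. Sums were made with pandas 2.3.3 and numpy 2.4.6 under Python 3.11.15, intervals with scipy 1.17.1 and plots with matplotlib 3.10.9.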

Additional observations from a re-analysis of the deposited data

How the results depend on the processing

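No paired analysis was possible because each age has 1 library. Of 76 values under an alternative, 59 stayed within the main counting interval, 14 lay outside it and 3 reversed. With all deposited barcodes, Scgb1a1 in the airway secretory gate was 1662 times the T cell level in 18 M and 45981 times in 10 M, where no such barcode lay within the limits, and for NB and 2 M no alternative gave a value. In alveolar type II cells it was 219.4 times the T cell level in NB, 152.0 in 10 M and 8.52 in 18 M. With the mean share per barcode the ratio was 2296 for the 18 M airway barcode and, for alveolar type II cells, 399.4 in NB and 1.41 in 18 M. The strict gate left 1 alveolar type II barcode in NB (22.8) and 1 in 2 M (68.7), none in 10 M, and 17 in 18 M, where the ratio reversed to 0.681. Without the barcode with most Scgb1a1 UMIs the alveolar type II ratio was 49.7 in NB, 46.9 in 10 M and, reversed, 0.634 in 18 M. Without rich barcodes, added after the data were seen, it was 20.8, 45.5 and 0.631. Scgb3a1 in T cells was at least 7.77-fold higher in 18 M than in 2 M with 4 markers, and 45.7-fold on 1 UMI in 2 M with 2 markers. Scgb3a2 ran from at least 71.1 without the top barcodes to 263.6. For these moves the cause was not tested. Scgb1a1 in T cells stayed between 20.8 and 25.6 times under all 10 alternatives, that of Y-linked T cells included. Shares of UMIs in rich barcodes at cuts of 0.3% and 3%, also added, were 96.0% and 94.7% for Scgb1a1, 90.0% and 83.4% for Scgb3a2 and 77.9% and 57.4% for Scgb3a1.

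The limits of these data are 1 library per age, with age, library and the Xist level of 18 M not to be told apart, and airway cells so few that 1 barcode sets a value. The intervals treat UMIs as independent and leave out the clumping of UMIs in single barcodes. Levels of a few UMIs per gate, as for Scgb3a1, allow wide ranges.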

Other observations

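A further secretoglobin row, Scgb1c1, had 89, 46, 148 and 625 UMIs from the youngest library to the oldest. Only 5.07% of its 908 UMIs lay in the 38 rich barcodes, against 95.1% for Scgb1a1, and T cells of 18 M held 4. Scgb2b7 had 1 UMI, and the other 29 rows named Scgb were at 0. Of the airway genes, Bpifa1 had 41, 5, 1136 and 0 UMIs in that order, so that the library with most Scgb1a1 had none of it, while Muc5b had 3, 0, 63 and 139. Both were named after their values were seen.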
